A study of Mus musculus with 19 samples.

Results

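Potassium channel subunits were followed through RNA-seq and ribosome profiling of mouse hippocampal slices. The members are all rows of the RNA and RPF count tables whose gene symbol starts with Kcn, which gave 94 of 20436 genes. Acute slices came from wild-type male mice aged 28 to 42 days by the sample labels, were made without removing CA3, and were kept for 5 min in DHPG at 100 µM, an agonist of group I metabotropic glutamate receptors, or in ACSF as vehicle (basal). All groups then received cycloheximide at 100 µg/ml, which stops elongating ribosomes. Slices of 6 mice were pooled per condition in a replicate, and whether basal and DHPG pools of a replicate share mice is not stated. There were 4 basal and 5 DHPG RNA libraries and 5 basal and 5 DHPG libraries of ribosome-protected fragments (RPFs), the pieces of mRNA covered by a ribosome. RNA and RPF libraries of one number were cut from the same lysate, and the DHPG RNA library of replicate 5 had no basal partner. Library totals were 4870813 to 7793244 counts for RNA and 5692064 to 22092434 for RPF.

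Potassium channels let K+ leave or enter a cell through a pore whose narrowest stretch, the selectivity filter, carries the residues Gly-Tyr-Gly or Gly-Phe-Gly. In hippocampal neurons they set the resting potential, end the action potential, shape its after-hyperpolarization and limit firing, and in astrocytes they take up K+ from around active neurons. The genes fall into voltage-gated alpha subunits (Kcna, Kcnb, Kcnc, Kcnd, Kcnh and Kcnq, 30 members) and the classes that follow. Silent voltage-gated subunits only work within other channels (Kcnf, Kcng, Kcns and Kcnv, 10 members). Calcium- or sodium-activated channels (Kcnma, Kcnn and Kcnt) were grouped with their relative Kcnu1, 8 members in all. Further classes are inward rectifiers (Kcnj, 15 members) and tandem-pore leak channels (Kcnk, 14 members). Auxiliary subunits form no pore (Kcnab, Kcne, Kcnip and Kcnmb, 16 members), and Kcnrg is a regulator that forms no channel. Group I glutamate receptors signal through Gq and phospholipase C, a route long known to close M-type (Kcnq) and leak (Kcnk) channels by acting on the proteins.

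The filter is written in the coding sequence of most members. Coding sequences were searched in frame, on the coding strand alone, for 4 codons in a row: NTN for a hydrophobic residue, GGN for Gly, TAC or TAT for Tyr, and GGN. This pattern was present in 59 of the 94 members and in 1.42% of 20108 other genes with a coding sequence. With TTC or TTT for Phe in the third codon, it was present in 24 members and in 2.59% of the other genes. The 2 patterns cannot overlap in the same codons, and a match is a run of letters, not a shown pore. All 16 auxiliary members and Kcnrg held neither, and neither did Kcnk1 and Kcnk7. The patterns need an NTN codon first, so a Gly-Tyr-Gly or Gly-Phe-Gly behind any other codon would be missed. Tyrosine codons were found in every Kcna, Kcnb, Kcnc, Kcnd, Kcnq and Kcnn member and in all 10 silent subunits, while all 8 Kcnh members, both Kcnt members, Kcnu1 and the ATP-sensitive channel subunits Kcnj8 and Kcnj11 carried phenylalanine. In 11 of 14 Kcnk genes more than 1 match was found. Each of these proteins is known to hold a pair of pore loops. The 30 coding bases around the match are shown for members on which the results below turn, 5′ to 3′ in the sense of the gene, with the matched codons in capitals. They were read from the GENCODE M21 transcripts of GRCm38 (mm10). Kcnk9 also holds a Gly-Tyr-Gly match at codon 94, and only its Gly-Phe-Gly match, at codon 200, is shown.
Kcna2, chr3:107105218-107105247, plus strand: atgacaactGTAGGCTATGGAgacatggtt
Kcnk9, chr15:72512710-72512739, minus strand: ttgactactATAGGGTTCGGCgattttgtg
Kcnh3, chr15:99232923-99232952, plus strand: ctcaccagtGTGGGCTTCGGCaacgtgtcc
Kcnn1, chr8:70850648-70850677, minus strand: ttcttgtccATTGGCTATGGAgacatggtg
Kcnt2, chr1:140425272-140425301, plus strand: ttttctactGTGGGCTTTGGGgatgtcact
Kcnma1, chr14:23528404-23528433, minus strand: atgtctacaGTGGGTTATGGGgacgtttat
Identity between members was limited: 17 of 94 members shared any 30-base word of coding sequence with another member, and the highest share was 8.52% of words, in Kcna6.

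Of the 94 members, 73 passed the filter on low counts in RNA, 73 in RPF and 71 in both. No count was seen in any of the 19 libraries for Kcnj1, Kcnk16, Kcnk18, Kcnmb3 and Kcnv2, which allows up to 0.616 CPM in the shallowest RNA library and 0.527 CPM in the shallowest RPF library (3 counts, counting error only). CPM is a count scaled to 1000000 counts of the library after TMM normalization. Totals of 0 to 13 counts over all 9 RNA libraries were found for Kcna10, Kcna7, Kcne1, Kcne2, Kcne3, Kcnj15, Kcnk15, Kcnk7, Kcnmb1 and Kcnn4, and Kcnj5, Kcnq1 and Kcnrg, with 25 to 37, were not tested in either assay. Kcnk5, a leak channel with 36 RNA and 79 RPF counts in total, was not tested either. Kcne4 and Kcnj13 entered only the RPF test, Kcna5 and Kcnk6 only the RNA test. Kcnj13 and Kcne2, which are abundant in choroid plexus, had 0.636 to 1.76 and 0 to 0.0795 CPM in the basal RPF libraries.

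Levels of different genes were compared as CPM per kilobase of counted length, which is the coding sequence without its ends for RPF and the transcript for RNA. The highest RPF level belonged to Kcnab2, a cytosolic beta subunit of Kv1 channels (chr4:152390742-152477871), with 456 ± 48.1 CPM per kb (SD, n = 5). Then came Kcnj10, the Kir4.1 inward rectifier of astrocytes, with 169 ± 20.8, and the Kv4 partners Kcnip3 and Kcnip4 with 159 ± 9.20 and 159 ± 6.73. The last 3 differed by less than their spread over replicates. Auxiliary subunits together made up 42.2% of the summed RPF level of the members and 29.9% of their summed RNA level, and voltage-gated alpha subunits 22.2% and 28.1%. RNA levels depend on the transcript chosen: with the longest annotated transcript of each gene, or the one matched to RefSeq, the auxiliary share of RNA was 22.4% or 21.1%.

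**Figure D1:**
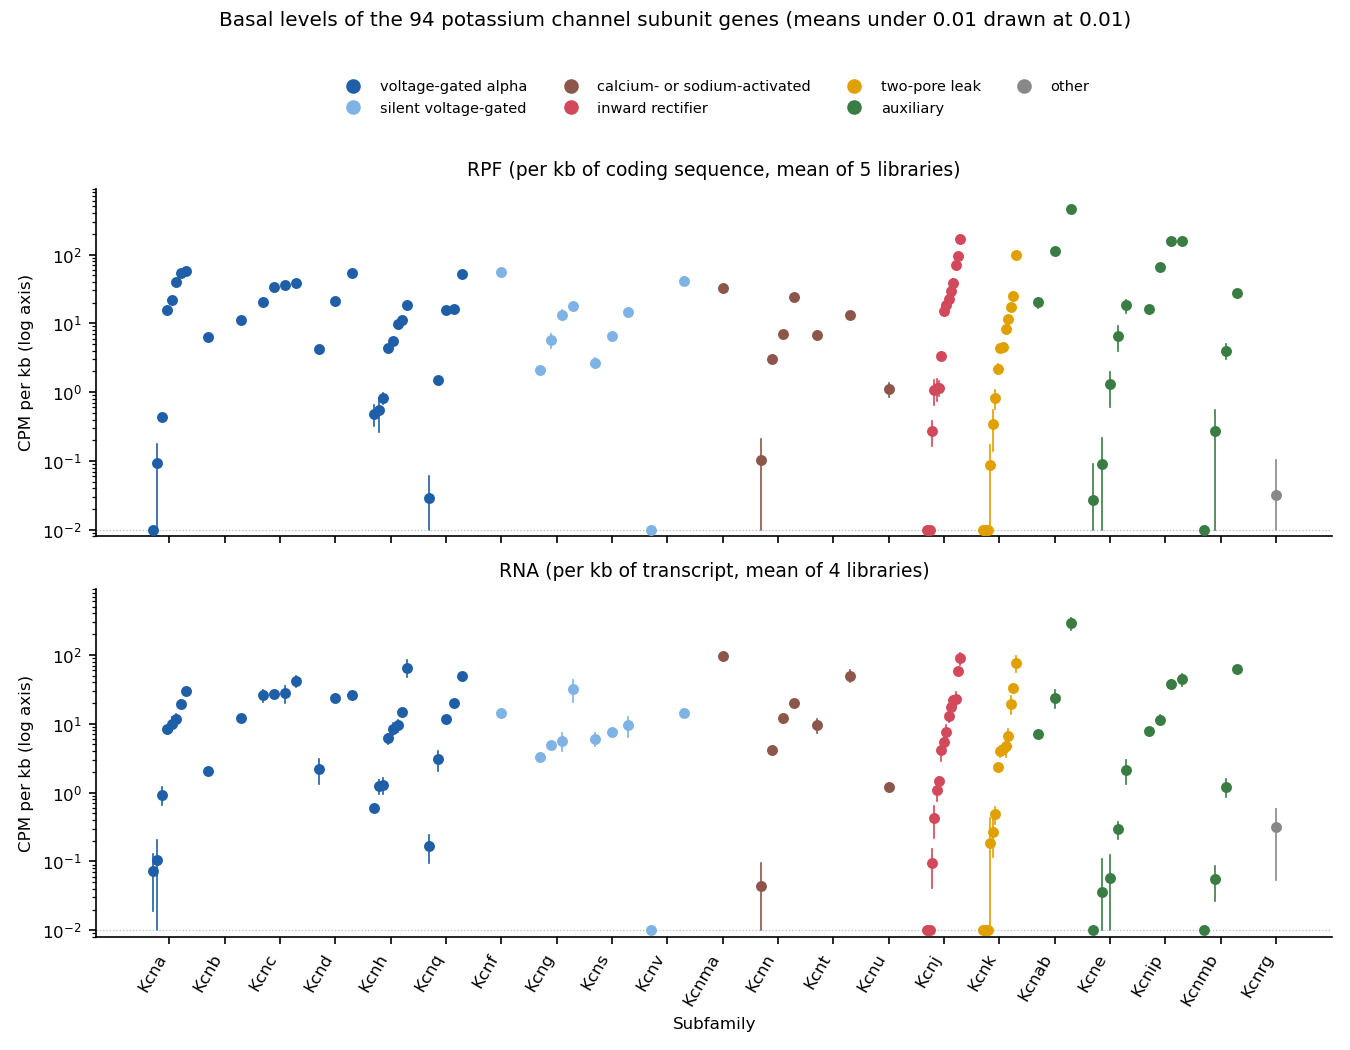
Basal level of each of the 94 members by subfamily, in CPM per kb on a log axis, for RPF (mean of 5 libraries, upper) and RNA (mean of 4, lower), with bars of 1 SD and colours for the class. In each panel 8 members have a mean under 0.01 and are drawn at 0.01; Kcnab2 stands highest in both panels, at 456 for RPF and 291 for RNA; with its transcript of 3922 in place of 1552 bases the RNA value is 115, still the highest.

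Among the voltage-gated alpha subunits, the Kv1 genes Kcna1 and Kcna2, which encode axonal channels that hold down excitability, had near equal RPF levels. Kcna1 was at 71.4, 84.7, 87.8, 84.5 and 84.3 CPM in basal RPF replicates 1 to 5. Kcna2 was at 75.1, 88.3, 78.0, 73.0 and 72.9 CPM. The ranges overlapped, and per kb of coding sequence the means were 57.8 ± 4.48 and 53.8 ± 4.45 (SD, n = 5). Kcna6 followed with 40.0 ± 2.99 and Kcna4, the A-type Kv1.4 channel, with 21.9 ± 0.94. Kcnd2, the Kv4.2 channel that carries the dendritic A-type current of pyramidal cells, had 87.3, 102, 109, 95.1 and 105 CPM in the basal RPF libraries, 54.5 ± 4.73 per kb. Its relative Kcnd3 had 20.8 ± 1.87 and Kcnd1 4.25 ± 0.20 per kb, so the levels of the 3 Kv4 genes did not overlap.

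Kcnq3, a subunit of M-current channels, had 37.8 to 40.6 CPM in the basal RPF libraries. Per kb this was 15.4 ± 0.43 in RPF (SD, n = 5) and 20.01 ± 2.07 in RNA (SD, n = 4). Kcnq5 was at 16.3 ± 1.38 per kb in RPF. The Kv3 genes Kcnc1 and Kcnc2, known from rapidly firing interneurons, lay at 38.2 and 34.05 per kb in RPF, with Kcnc4 at 20.4. Kcnb2, a delayed rectifier, had 6.25 ± 0.40 per kb. Of the Kcnh genes, Kcnh7 (Erg3) was highest in RPF with 18.3 ± 2.36 per kb. The silent subunit Kcnf1 reached 56.0 ± 4.18 per kb, which differed from Kcna1 by less than the spread over replicates, and Kcnv1 41.8 ± 4.87, whereas Kcng2, Kcng1 and Kcns2 lay between 13.4 and 18.1.

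Inward rectifiers were led by Kcnj10, followed by Kcnj3 and Kcnj6, which encode the GIRK channels opened by G protein-coupled receptors. Kcnj3 had 139, 138, 148, 138 and 123 CPM and Kcnj6 78.3, 88.3, 92.9, 89.0 and 77.2 CPM in the basal RPF libraries. All Kcnj3 values lay above all those of Kcnj6, and per kb the means were 94.9 ± 6.24 and 69.9 ± 5.72. Kcnj9, a further GIRK subunit, had 29.8 ± 1.41 per kb. Among leak channels Kcnk1 was highest with 97.9 ± 4.32, ahead of Kcnk9 with 24.6 ± 2.39 and Kcnk2, the mechanosensitive TREK-1 channel, with 17.3 ± 0.78. The BK channel gene Kcnma1 stood at 32.4 ± 2.01 per kb in RPF and its neuronal beta subunit Kcnmb4 at 27.7 ± 3.16. The small-conductance channels Kcnn2 and Kcnn3 had 23.9 ± 1.61 and 6.90 ± 0.27, and Kcnn4, found mostly outside the brain, had 11 counts over the 5 basal RPF libraries. Kcnu1, known from sperm, was low but tested, with 4.01 to 4.89 CPM in basal RNA. In bulk slices fewer cells of a type and less RNA per cell cannot be told apart.

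Next, the basal RPF level of each member was set against its RNA level, as a measure of ribosome density per mRNA (translational efficiency). The log2 ratio of RPF to RNA was taken within replicates 1 to 4, corrected for counted length and centred on the median gene. limma's treat then tested whether a gene lay more than 1 on the log2 scale from that median. Of 71 members, 8 lay above and 15 below (adjusted p under 0.05), against a background of 18.4% above and 14.4% below, 32.8% in all, among 12636 genes. The median member had a ratio of −0.61 on the log2 scale, and 24 of 71 were above the median gene. Among the 61 pore-forming and silent subunits the median was −0.83, with 17 above, and among the 10 auxiliary subunits it was 0.77, with 7 above. Without length correction 18 members were called, 1 above (Kcnip4) and the others below, against 15.2% of all genes (7.6% above and 7.64% below).

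**Figure D2:**
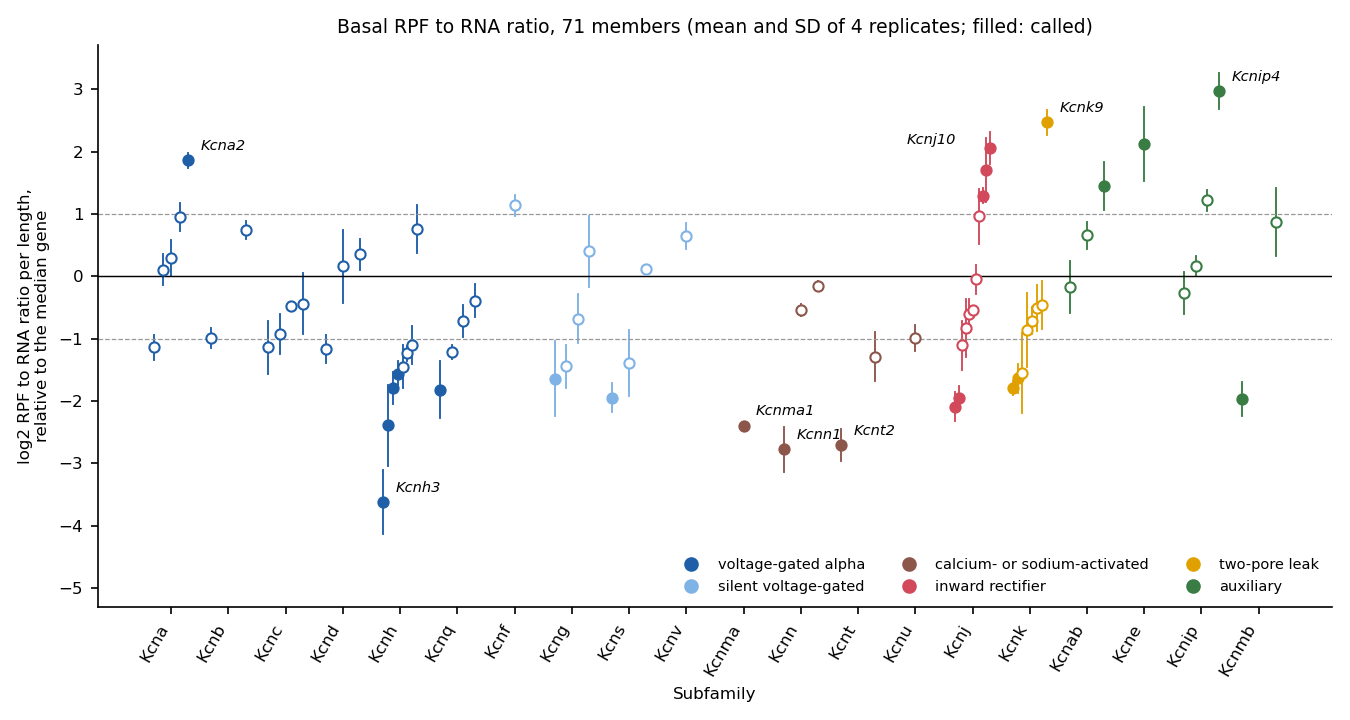
Basal log2 ratio of RPF to RNA per length relative to the median gene (line at 0) for 71 members by subfamily, as mean and SD of 4 replicates. Filled points passed the test against a difference of 1 (dashed lines), 8 above and 15 below; Kcnip4 is highest at 2.97 and Kcnh3 lowest at −3.62.

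The highest ratio belonged to Kcnip4 (chr5:48389502-49524907), a calcium-binding KChIP protein that joins Kv4 channels. It had 27.4, 27.2, 21.1 and 32.4 CPM in basal RNA but 107, 112, 118 and 107 CPM in basal RPF of the same replicates. RPF values were above RNA values in each replicate, and the length-corrected ratio was 2.90, 2.97, 3.36 and 2.66 on the log2 scale, mean 2.97 ± 0.29 (SD, n = 4, limma adjusted p = 2.7e-06), 7.84-fold the median gene. Kcnk9, the acid-sensitive TASK-3 leak channel (chr15:72501089-72546340), had ratios of 2.52, 2.73, 2.27 and 2.36, mean 2.47 ± 0.20 (limma adjusted p = 1.2e-05). Its counts were 26.3 to 31.4 CPM in RNA and 25.9 to 32.5 CPM in RPF, ranges that overlapped, and the ratio rests on an annotated transcript of 12300 bases with 1209 coding bases. Without length correction it was 0.066.

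Kcnj10 (chr1:172341210-172374085) had ratios of 2.04, 1.77, 2.03 and 2.40, mean 2.06 ± 0.26 (limma adjusted p = 7.3e-05). Kcna2 (chr3:107101146-107115005) had 1.72, 1.95, 1.96 and 1.79, mean 1.86 ± 0.12 (limma adjusted p = 0.00012), while its relative Kcna1 was at 0.11 ± 0.25 and was not called. The annotated transcript of Kcna2 spans 11582 bases and that of Kcna1 4031, and without length correction the ratio of Kcna2 was −0.13. Kcne1l, a small single-pass subunit, had 2.79, 1.69, 1.57 and 2.43, mean 2.12 ± 0.59, from RNA levels of 2.11 to 4.93 CPM. The other members called above were Kcnj2, Kcnab1 and Kcnj3, with 1.71, 1.45 and 1.29. Kcnj3 was not called without replicate 1, 2 or 3, and Kcnab1 was not called without replicate 2 or 3. The Kcnj3 call was also lost with the longest transcript (1.10), the transcript matched to RefSeq (1.27) and no length correction (0.46). It was lost as well with at least 10 counts required in every library.

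At the other end stood Kcnh3 (chr15:99224861-99242817), the Elk2 channel of forebrain neurons. Its RNA was at 196, 266, 328 and 181 CPM in basal replicates 1 to 4 and its RPFs at 31.6, 28.1, 27.9 and 32.2 CPM. RPF values lay far under RNA values in all 4, with ratios of −3.26, −3.87, −4.23 and −3.12, mean −3.62 ± 0.52 (SD, n = 4, limma adjusted p = 2.7e-06), 0.0814 times the median gene. Kcnh3 was 1 of 4 Kcnh members called below, beside Kcnh4 with −2.39 ± 0.65, Kcnh2 with −1.79 ± 0.26 and Kcnh5 with −1.57 ± 0.21. Without length correction Kcnh3 was still called, at −2.80, whereas Kcnh4, Kcnh2 and Kcnh5 were not, at −1.77, −1.07 and −1.04. Kcnh7 was the only Kcnh gene of 8 above the median gene, with 0.76 ± 0.39, a value that became −0.14 without length correction. Kcnh4 was near the detection limit in RPF, with 0.35 to 2.40 CPM.

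In the class of Kcnma, Kcnn, Kcnt and Kcnu all 7 tested members lay below the median gene and 3 were called. One of the 7, Kcnn3, lay at −0.16 and was above the median gene without length correction (0.42) and with the longest transcript (1.18). Kcnn1, the SK1 channel, had ratios of −2.60, −2.85, −3.23 and −2.40, mean −2.77 ± 0.36 (limma adjusted p = 1.7e-05). Kcnt2, the Slick sodium-activated channel, had −2.44, −2.56, −2.81 and −3.02, mean −2.71 ± 0.26 (limma adjusted p = 4.2e-06). Kcnma1 (chr14:23289431-24014491) had −2.37, −2.46, −2.41 and −2.33, mean −2.39 ± 0.06 (limma adjusted p = 3.4e-06), and was called under every alternative but 1: with the longest annotated transcript, of 12094 in place of 3753 bases, its ratio was −0.90 and was not called. Kcnmb4, the BK beta subunit, was also called below, at −1.97 ± 0.27, as were Kcnj4, Kcnj12, Kcns3, Kcnk2, Kcng2 and Kcnk13, at −2.09 to −1.64. Kcng2 was not called without replicate 2 or 3, nor Kcnk2 without length correction or with the longest transcript. Kcnj4 and Kcnj12, which encode strong inward rectifiers, were below while Kcnj2, of the same kind, was above.

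The pattern was seen again in the DHPG libraries, which share replicates but not libraries with the basal set. There 28 members were called, against 36.2% of genes, including all 23 of the basal set in the same direction, and 69 of 71 members had the same sign. For Kcnip4 the mean was 3.13 and for Kcnh3 −3.60. Both sets rest on the same gene lengths, assays and replicates, so the agreement is no independent test.

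The comparison of DHPG with basal asked which subunits changed in RNA, in RPF or in their ratio within 5 min of receptor activation. All genes were tested with edgeR's quasi-likelihood F test, in which the replicate was a block. In RNA 0 of 73 members passed an adjusted p of 0.01, where 0.00773% of 12935 genes did (1 gene), and 5 members had an unadjusted p under 0.05, where 1037 genes did. DESeq2 with the block and ComBat followed by DESeq2 also called 0 members. In RPF 1 of 73 members passed an adjusted p of 0.05, against 0.22% of 13208 genes (0.182% higher and 0.0379% lower). The ratio of RPF to RNA changed in 0 of 71 members and 0.0% of 12691 genes in edgeR, with 3 members and 859 genes at an unadjusted p under 0.05, and in 0 members by limma.

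**Figure D3:**
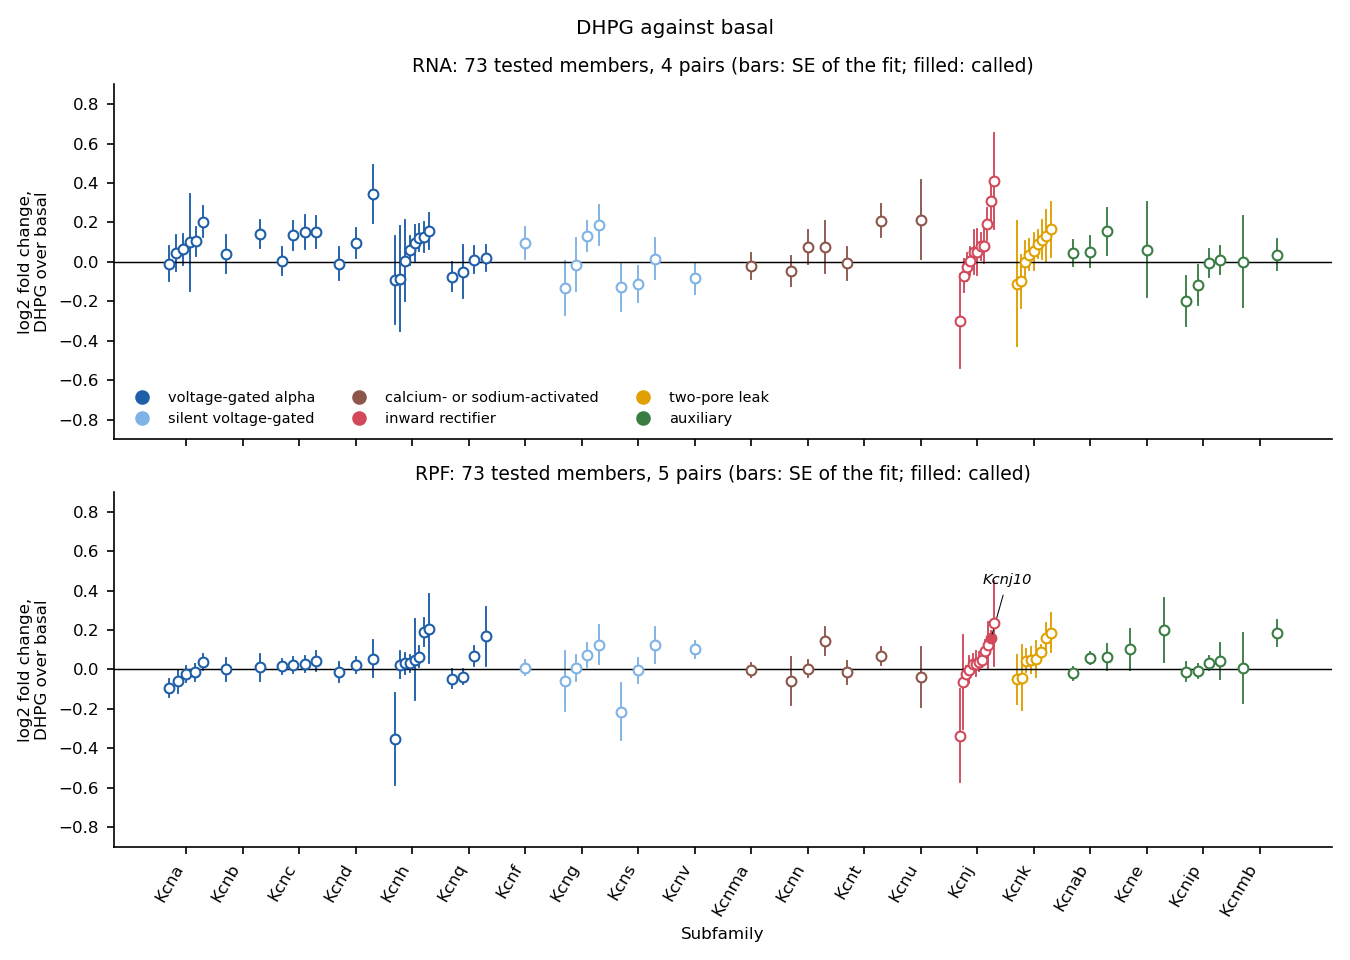
Log2 fold change of DHPG over basal for the 73 members tested in RNA (upper, 4 pairs) and the 73 in RPF (lower, 5 pairs), by subfamily, with bars of 1 standard error of the edgeR fit. The filled point, Kcnj10 at 0.16 in RPF, is the only member called.

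Changes were small. In RNA the log2 fold changes ran from −0.30 for Kcnj8 to 0.41 for Kcnj14, with a median standard error of 0.088, and 66 of 73 members lay within 0.2 of 0. These end members had low counts, with 3.10 to 4.16 CPM for Kcnj8 and 2.26 to 4.09 CPM for Kcnj14 in basal RNA. In RPF the log2 fold changes ran from −0.35 for Kcnh4 to 0.23 for Kcnj8, with a median standard error of 0.060, and 67 of 73 lay within 0.2. Kcnh4 and Kcnj8 were also low there, at 0.35 to 2.40 and 1.17 to 2.02 CPM in basal RPF. More members were higher than lower after DHPG, 51 of 73 in RNA, where 52.1% of all genes were, and 49 of 73 in RPF, where 51.4% were. The median member changed by 0.048 in RNA and 0.030 in RPF on the log2 scale, beside 0.0068 and 0.0031 over all genes. Within single pairs the median of the members in RNA was 0.0029, 0.00031, 0.054 and 0.11, and in RPF 0.0016, 0.065, 0.030, 0.020 and 0.0053, so that replicates 1 and 2 in RNA and 1 and 5 in RPF gave medians close to 0. Marker genes of cell types and regions were followed in the same RNA libraries. These lists were chosen with earlier results of these data known, so a shared direction within a list may come from the choice. All 7 tested thalamus markers were higher after DHPG, with a median log2 fold change of 0.60, and their sum went from 117 to 157 CPM in basal to 146 to 201 CPM in DHPG libraries, higher in 4 of 4 pairs. The gene called in RNA was one of them, Prkcd, with 0.70 (edgeR adjusted p = 0.0044). Oligodendrocyte markers were higher in RNA for 8 of 8, with a median of 0.16 and 0 called, and their sum was higher in 4 of 4 pairs. Astrocyte markers were higher for 7 of 8, microglial markers for 4 of 8, endothelial and mural markers for 3 of 8 and interneuron markers for 1 of 8, with 0 called. CA1 markers were higher for 6 of 6 with a median of 0.084, and dentate gyrus markers for 6 of 6 with 0.085. CA3 markers were higher for 3 of 6, and 0 were called in these 3 lists. The part of these shifts in the members' RNA values was not tested.

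The member called was Kcnj10 (ENSMUSG00000044708), which encodes the channel that carries most of the K+ conductance of astrocytes. Its RPFs were at 179, 179, 218, 155 and 184 CPM in basal replicates 1 to 5 and at 204, 214, 227, 184 and 193 CPM after DHPG. Each replicate was higher after DHPG, 5 of 5, although the groups overlapped because basal replicate 3 lay above 4 of the DHPG libraries. The log2 fold change was 0.16 with a standard error of 0.034 (edgeR adjusted p = 0.0252), a rise of less than the range between basal replicates. In RNA Kcnj10 was at 123, 148, 145 and 82.6 CPM in basal and at 155, 132, 166 and 108 CPM in DHPG replicates 1 to 4, higher in 3 of 4 pairs, with a log2 fold change of 0.19 (edgeR adjusted p = 0.578). Its ratio differed by −0.031 (edgeR adjusted p = 0.967). The RPF call did not hold without replicate 1, 2 or 4, where the edgeR adjusted p was 0.108, 0.329 and 0.106 and the log2 fold change 0.15, 0.13 and 0.14, nor without the replicate block (adjusted p = 1.0). It held without replicate 3 or 5 and in DESeq2 with the block (adjusted p = 0.0282).

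**Figure D4:**
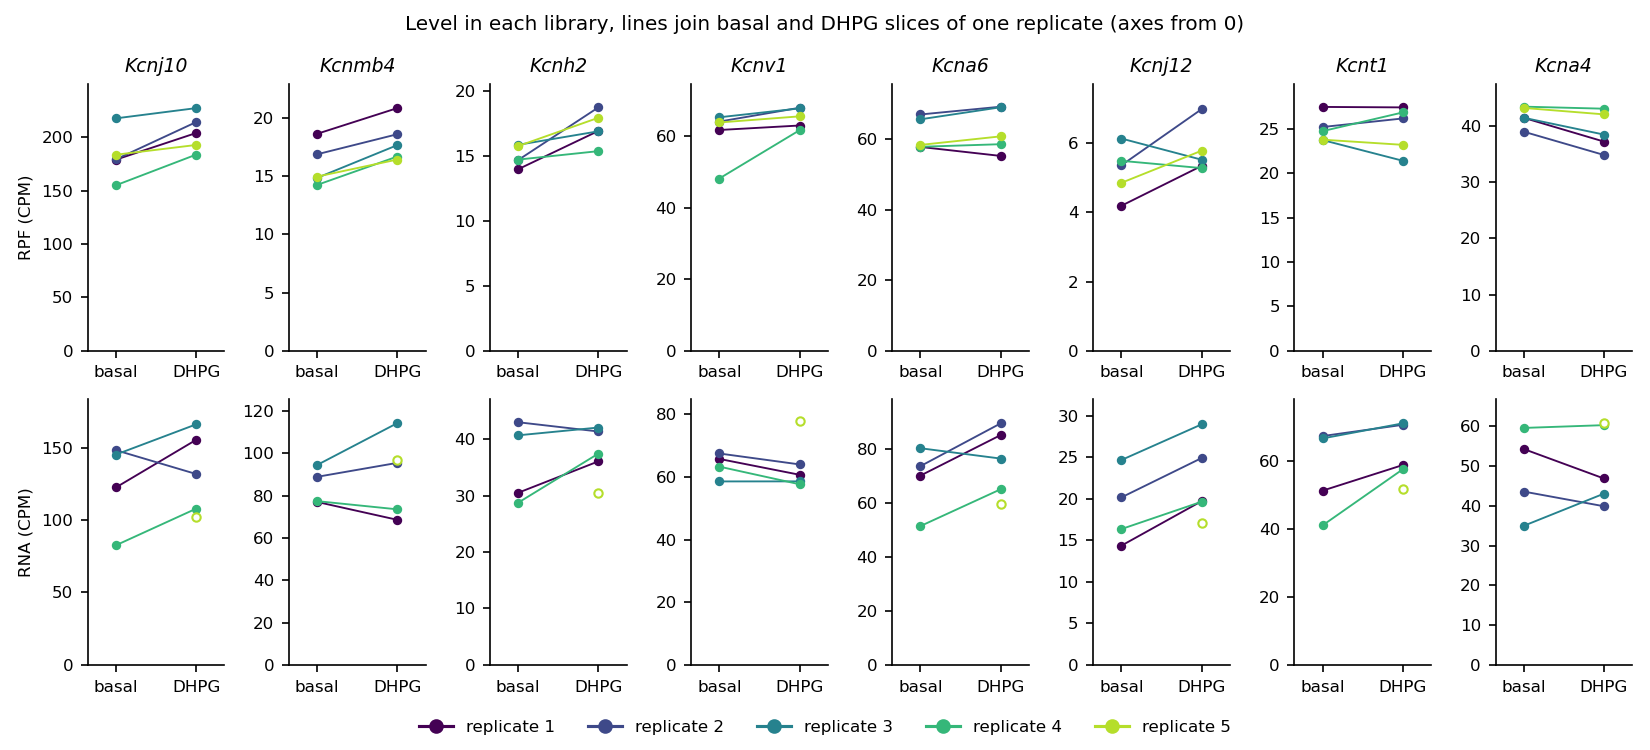
RPF (upper row) and RNA (lower row) of 8 members in each library, in CPM on axes from 0, with lines joining basal and DHPG slices of a replicate and an open point for the DHPG RNA library without a basal partner. All 5 RPF lines of Kcnj10, Kcnmb4, Kcnh2 and Kcnv1 go up and all 5 of Kcna4 go down; of these only Kcnj10 passed the test.

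The same marker lists were followed in RPF, with the same limit on how they were chosen. All 8 astrocyte markers were higher in RPF after DHPG, with a median log2 fold change of 0.075 and 0 called. Their summed RPF level was 5025 to 6092 CPM in basal and 5231 to 6452 CPM in DHPG libraries and was higher in 5 of 5 pairs. As a share of that sum Kcnj10 was at 3.56, 3.16, 3.57, 2.90 and 3.38% in basal replicates 1 to 5 and at 3.90, 3.68, 3.52, 3.37 and 3.34% after DHPG, higher in replicates 1, 2 and 4. Of 9 tested thalamus markers all were higher in RPF and 6 were called, with a median of 0.43, and their sum went from 169 to 210 CPM in basal to 170 to 273 CPM in DHPG libraries, higher in 4 of 5 pairs. Gbx2, the marker not tested, was at 0.181 to 1.75 CPM in basal RPF. Oligodendrocyte markers were higher for 6 of 8 with 1 called, microglial markers for 8 of 8 with 0 called, and endothelial and mural markers for 1 of 8 with 0 called. CA1 markers were higher for 5 of 6, dentate gyrus markers for 4 of 6 and CA3 markers for 2 of 6, with 0 called. Of 8 interneuron markers 4 were higher and 1, Sst, was called. Of 8 choroid plexus markers 2, Kl and Sostdc1, passed the filter in RPF, and Ttr was at 0.339 CPM on average in basal libraries. The part of these shifts in the Kcnj10 value was not tested. Kcnj16, which joins Kcnj10 in astrocytes, was at 20.8 to 25.5 CPM in basal RPF and at 17.4 to 27.5 CPM after DHPG, higher in replicates 3 and 4.

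After Kcnj10 the smallest p-values in RPF were those of Kcnmb4 and Kcnh2. Kcnmb4 went from 18.6, 16.9, 14.8, 14.2 and 14.9 CPM in basal to 20.8, 18.6, 17.6, 16.7 and 16.4 CPM in DHPG libraries. The log2 fold change was 0.19 (standard error 0.067, edgeR adjusted p = 0.284), higher in 5 of 5 pairs with overlapping groups. Kcnh2, the Erg1 channel, went from 14.0, 14.7, 15.8, 14.7 and 15.7 to 16.9, 18.7, 16.9, 15.3 and 17.9 CPM, with 0.19 (standard error 0.070, edgeR adjusted p = 0.303), and was also higher in 5 of 5. On the lower side Kcna4 was at 41.4, 38.9, 41.4, 43.4 and 43.2 CPM in basal and at 37.2, 34.8, 38.4, 43.0 and 42.0 CPM in DHPG libraries. It was lower in 5 of 5 pairs, with −0.094 (standard error 0.048, edgeR adjusted p = 0.483). Kcnh4 and Kcns3, both under 5 CPM, had −0.35 and −0.21 with edgeR adjusted p of 0.622 and 0.637.

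In RNA the smallest p belonged to Kcnj12, with 14.4, 20.2, 24.7 and 16.4 CPM in basal and 19.7, 24.9, 29.0 and 19.6 CPM in DHPG replicates 1 to 4. It was higher in 4 of 4 pairs, with overlapping groups and a log2 fold change of 0.31 (standard error 0.11, edgeR adjusted p = 0.545). Kcnt1, the Slack channel, had 0.21, higher in 4 of 4, and Kcna6 0.20, higher in 3 of 4 (edgeR adjusted p = 0.558 for both). The lowest p among members lower in RNA were those of Kcnip1, Kcnj8 and Kcns2, with −0.20, −0.30 and −0.11 and edgeR adjusted p from 0.722 to 0.786. Kcnip1 was lower in 4 of 4 pairs, from 15.7, 14.0, 14.3 and 13.7 to 14.4, 12.8, 13.5 and 9.96 CPM.

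For the ratio, Kcnt1 had a change of −0.22 (standard error 0.096) and Kcnj14 of −0.75 (standard error 0.33), and Kcnv1 of 0.19 (standard error 0.083), each with an edgeR adjusted p from 0.708 to 0.718. Kcnv1 RPFs were at 61.7, 64.1, 65.3, 48.2 and 63.8 CPM in basal and at 63.0, 67.9, 67.8, 61.7 and 65.5 CPM after DHPG, and the widest step was from the low basal replicate 4. Kcnj8, Kcnip1 and Kcna6 followed with 0.53, 0.24 and −0.17. The values of Kcnj14 and Kcnj8 rest on few counts, at 0.771 to 2.10 and 1.17 to 2.02 CPM in basal RPF.

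By subfamily the counts of members higher after DHPG were spread over most groups. Of the Kcnh genes 6 of 8 were higher in RNA and 7 of 8 in RPF, with medians of 0.078 and 0.040. Kcna genes were higher for 5 of 6 in RNA but 1 of 5 in RPF, with medians of 0.081 and −0.021. Of leak channels 7 of 9 were higher in RNA and 6 of 8 in RPF, with 0 called. Kcnma1 had log2 fold changes of −0.021 in RNA and −0.00096 in RPF.

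Proteins that assemble with, place or regulate these channels were looked at as a list of 44 genes. None of 41 tested in RNA, 42 in RPF and 41 for the ratio passed the thresholds, with medians of 0.004, 0.008 and −0.011. An unadjusted edgeR p under 0.05 was found for 4, 7 and 3 of them, where 8.02%, 10.8% and 6.77% of all genes had one. The list holds Dpp6 and Dpp10 of Kv4 channels, Lgi1 and Cntnap2 of Kv1 clusters, Ank3 of the axon initial segment, the GABA-B receptor genes that open GIRK channels and the group I receptor gene Grm5 with effectors of that receptor. In basal slices 13 of the 41 lay above the median gene in their RPF to RNA ratio by the same test as for the members and 3 below, where 18.4% and 14.4% of all genes did. Summed levels of Kv1 partners were 1800 to 2113 CPM in basal RPF and 1792 to 2163 CPM after DHPG.

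Several members lie next to each other on GRCm38. Kcnj9 and Kcnj10 are 11.9 kb apart on chromosome 1, and Kcna3, Kcna2 and Kcna10 form a row on chromosome 3 as Kcna5, Kcna1 and Kcna6 do on chromosome 6. Some neighbours differed in level: Kcna10 had no more than 0.0454 CPM in any basal RPF library beside 72.9 to 88.3 for Kcna2. Others did not: Kcnj16 and Kcnj2, 38.2 kb apart on chromosome 11, had overlapping ranges of 20.8 to 25.5 and 23.1 to 31.2 CPM in basal RPF. Exons of Kcnh7 and Kcnj13 overlap those of Gca and Gigyf2 on the opposite strand, by 696 and 623 bases, and whether counting used strand is not given in the sources used here.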

How the data were processed

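The authors deposited RSEM expected counts as whole numbers, with 20436 genes in each of an RNA and an RPF table. Per the study's methods and the submitters' processing notes, adapters were removed with cutadapt, rRNA and tRNA reads with Bowtie2, and reads were mapped to mm10 with TopHat2. Uniquely mapped reads without duplicates by molecular identifier were counted, RNA on whole transcripts and RPFs on RefSeq coding sequences without 30 bases at each end. Reads of near-identical stretches are therefore lost or shared out, and counting error sets a lower limit on the error of each value. The 19 samples were grouped by their labels. A further 12 columns, later wild-type replicates of the same basal and DHPG conditions, match none of these samples and were not used. The study's methods describe its later batches as CA1-enriched. The DHPG results here leave those replicates out. The column of DHPG RNA replicate 5 has no basal partner and with the block adds nothing to the RNA contrast.

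Calculations used R 4.3.3, edgeR 4.0.16 (TMM, filterByExpr, quasi-likelihood F test, Benjamini-Hochberg adjustment over all genes tested), limma 3.58.1, DESeq2 1.42.0 and sva 3.50.0. Each adjusted p for DHPG is from edgeR and each for the basal ratio from limma's treat (prior count 2, minimum difference of 1). Thresholds were 0.01 for RNA and 0.05 otherwise. The replicate number was a block in the fits, since the study's methods call replicates batches, and samples of one number deviated together, with correlations of 0.308 to 0.741 in RNA and 0.259 to 0.523 in RPF. The study calls its replicates biological and pools slices of 6 mice per condition. With the block, p-values for DHPG measure how far the difference between DHPG and basal varies over replicates. For the basal ratio they measure how far the difference between RPF and RNA varies over replicates. The spread of levels between replicates does not enter either. Gene positions and lengths come from GENCODE M21 on GRCm38 (99.5% of rows matched), using the transcript with the longest coding sequence. The counted RPF length was the coding length less 60 bases.

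On simulated data edgeR recovered 62.8% of changes of 0.5 on the log2 scale in RNA (12851 genes) and 88.4% in RPF (13141 genes), with 0 and 6 false calls. The ratio test recovered 93.4% of changes of 1 (12626 genes), with 12 false calls among 196, and the basal ratio test 98.4% of those of 2 (12535 genes), with 0. Most DHPG changes seen were smaller: 66 of 73 members in RNA, 67 of 73 in RPF and 62 of 71 for the ratio lay within 0.2. Recovery of changes of that size was not simulated. For the basal ratio, unchanged genes were given the median ratio and the lengths were taken as known, so errors of transcript length were not simulated.

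Members and lists were chosen with earlier results of these data known. Genes named in the text are the tested member with the highest RPF level of each subfamily, members called for DHPG, the 3 with the smallest p in each direction for RNA, RPF and ratio, the 5 highest and 5 lowest basal ratios, and a written list. Other members called for the basal ratio, and members that complete a subfamily, are named by their values only. Alternatives were other size factors, filters, tools, thresholds, lengths, pairings and each replicate left out. Amino acid sequences were not used here. Values of some members are not reported here.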

Additional observations from a re-analysis of the deposited data

Results flagged for a closer look

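In 9 of 166 groups of 4 or 5 libraries a single library lay far from the rest by Dixon's criterion, where chance gives about 1 in 20, or 8.3 groups. In basal RPF replicate 1, Kcna1 was at 71.4 CPM (other replicates 84.3 to 87.8), Kcnj8 at 2.02 CPM (1.17 to 1.36) and Kcnu1 at 5.12 CPM (3.1 to 3.62). In basal RNA replicate 1, Kcns2 was at 42.7 CPM (40.2 to 40.6) and Kcnu1 at 4.89 CPM (4.01 to 4.12). Kcnn2, an SK channel of hippocampal neurons, was at 65.7 CPM in basal RPF replicate 3 (55.9 to 58.2). Kcnv1 was at 48.2 CPM in basal RPF replicate 4 (61.7 to 65.3), the library from which its widest step to DHPG was measured. In the DHPG libraries, Kcnab2 was at 605 CPM in RPF replicate 4 (485 to 507) and Kcng4 at 15.5 CPM in RNA replicate 3 (9.28 to 10.9). The basal RPF library of replicate 4 also held the highest Kcnab2 level of its group, 587 CPM.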

How the results depend on the processing

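Members called for DHPG in RPF numbered 1 in the edgeR fit with the replicate block, 0 at an adjusted p under 0.01, 0 with no replicate block, 2 with ComBat and DESeq2 (Kcnj10 and Kcnab2, log2 fold change 0.058), and 0 to 1 with each replicate left out. For RNA and for the ratio change 0 members were called with and without the block and under every other alternative run. Among all genes the RNA count was 1, and 7 with no filter, 0 with at least 10 counts, without the block or in DESeq2, 100 with ComBat and DESeq2 and 0 to 22 with a replicate left out (0 without replicate 3, 22 without replicate 2, 2 without 1 or 4). The RPF count was 29, and 8 at 0.01, 96 with no filter, 0 without the block, 427 with ComBat and DESeq2 and 3 to 71 with a replicate left out (3 without replicate 2, 10 without 1, 71 without 3, 50 without 5). The ratio count was 0, and 1 without replicate 1 and 8 without replicate 2.

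For the basal ratio 23 members were called, 25 with no replicate block (Kcng4, at −1.45, and Kcnk12 in addition), 61 with no minimum difference, and 20 to 27 with a replicate left out. Among all genes 4148 were called, 1926 without length correction and 9958 with no minimum difference. Signs turned in 13 members without length correction: Kcna1 (−0.37), Kcna2 (−0.13), Kcna4 (−0.019), Kcnab2 (0.33), Kcnb2 (−0.72), Kcnd1 (−0.30), Kcnd2 (−0.12), Kcng1 (−0.046), Kcnh7 (−0.14), Kcnip1 (−0.37), Kcnmb2 (−0.28), Kcnn3 (0.42) and Kcns2 (−0.85). They turned in 7 with the longest transcript: Kcna1 (−0.085), Kcnab2 (0.97), Kcnc1 (0.18), Kcnd1 (−0.033), Kcnd3 (0.067), Kcnn3 (1.18) and Kcns2 (−0.070). They turned in 2 with RefSeq transcripts, chosen after seeing the data, Kcnab2 (1.21) and Kcng1 (−0.44), and in 2 in DHPG libraries, Kcna1 (−0.0030) and Kcnd1 (−0.050). With a replicate left out Kcnd1 turned without replicate 1 (−0.0059) or 4 (−0.0067) and Kcnj9 without replicate 3 (0.026). These settings differ only in the length divided by or in the libraries used. With the longest and the RefSeq transcript, chosen after seeing the data for levels, the Kcnab2 RNA level was 115 CPM per kb in place of 291, and the auxiliary share of RNA 22.4% and 21.1% in place of 29.9%. The isoforms behind the RNA counts were not used here, and members under about 5 CPM rest on few counts.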
